A study of Mus musculus with 12 samples.

Results

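Cytokines, chemokines and their receptors were taken from a set of N6-methyladenosine (m6A) peaks of mouse liver as the genes whose symbol starts with Il and a digit, Tnf, Tlr, Ccl, Ccr, Cxcl, Cxcr, Csf, Ifn, Tgfbr, Acvr or Bmp. Ccl2, Ccr1 and Il2rb were left out by the rule. It took 64 of the 5667 genes that had a peak. The libraries were made from RNA fragments bound by an antibody against m6A, a methyl mark on adenosines of RNA (immunoprecipitation, IP), from livers of male C57BL/6 mice aged 12 weeks. There were 3 IP libraries from mice with hepatic fibrosis after ligation of the bile duct (BDL), an operation that stops bile from leaving the liver, and 3 from normal control mice. No transgene or other agent is named for either group, and the labels do not say that each library is a separate mouse, so p-values measure the spread between these libraries. The input libraries were not analysed here, so the amount of a transcript and its methylation cannot be told apart. In whole liver, more cells of a type and more RNA per cell cannot be told apart either.

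Cytokines are small secreted proteins that carry signals between immune, epithelial and connective tissue cells. Interleukin, interferon and colony stimulating factor receptors mostly signal through JAK kinases and STAT factors. Interleukin 1 receptors, toll-like receptors and tumour necrosis factor (TNF) receptors lead to NF-kB, and receptors of the TGF-beta and BMP family phosphorylate SMAD factors. In the liver these receptors are found on Kupffer cells, the resident macrophages, and on hepatocytes, bile duct cells, endothelium and stellate cells. The symbol rule also took genes that are neither cytokines nor receptors. Among them were the Tnfaip8 group, the protease Bmp1, the kinase Bmp2k and the enzyme Il4i1.

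The libraries held 20540863, 35691860 and 26690519 reads in peaks in BDL, and 15254737, 19251404 and 19378332 in control. Of the 64 genes, 57 had at least 1 peak annotated to them alone, and all 57 passed the filter on low counts among 4306 genes tested. A gene low in 1 group could pass through the other: 10 of the 57 had a control library without reads and 1 had a BDL library without reads. The other 7, Il17rb, Il4i1, Ifnar2, Csf1r, Bmp2k, Cxcr6 and Tnfrsf23, had only peaks shared with an overlapping gene and were followed at the level of peaks. The 57 genes had 95 peaks of their own, 175 bases wide at the median, and 76.8% of these fell within the final 20% of the gene's length, against 64.4% of all single-gene peaks.

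After BDL, IP reads rose for 12 of the 57 tested genes and fell for 2, by edgeR's quasi-likelihood test at an adjusted p of 0.05. Over all tested genes 14.7% were called, 8.2% higher and 6.55% lower, while the 12 and 2 are 21.1% and 3.51% of the 57. The receptor genes that rose were Ifngr1, Il4ra, Il10ra, Il22ra1, Il1r2, Il1rl2, Tnfrsf1b, Tlr8 and Tlr13. The other genes that rose were the TNF-induced gene Tnfaip8, its relative Tnfaip8l2, and Bmper, a secreted BMP-binding protein. The genes that fell were Il1rap, the shared co-receptor of the interleukin 1 family, and Tnfaip8l1, a relative of Tnfaip8. Without BDL replicate 1 the number that rose was 8, and without BDL replicate 2 or 3 it was 5. The median log2 change was 0.39 over the 57 and 0.03 over all tested genes. All 3 BDL libraries lay above all 3 control libraries for 23 of the 57 and below them for 6; of all tested genes 38.9% did not overlap, 21.6% above and 17.3% below. At an unadjusted p of 0.05, 21 of the 57 passed, against 27.5% of all tested genes. With library totals in place of TMM scaling the median of all genes moved by 0.347 to 0.38, and that of the 57 was 0.74. All changes below are on the TMM scale.

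**Figure D1:**
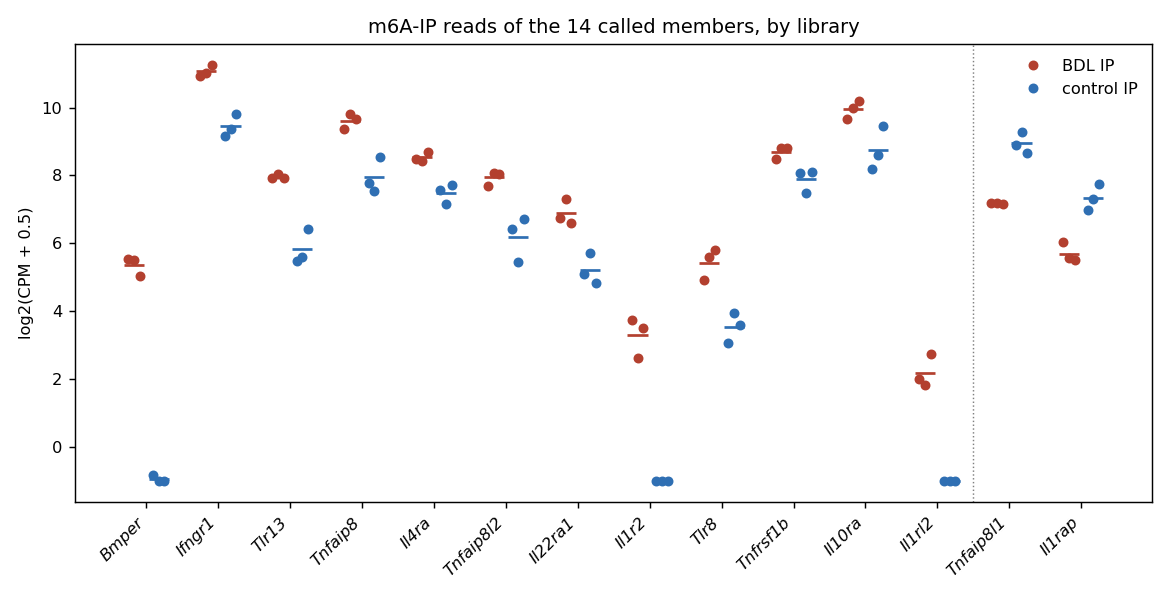
IP reads of the 14 called genes in each library, as log2 of CPM (read counts relative to the TMM-scaled library total) plus 0.5, with BDL libraries in red left of control libraries in blue and a bar at each group's mean. The dotted line parts the 12 genes that rose from Tnfaip8l1 and Il1rap, which fell; the BDL and control libraries do not overlap for any of the 14.

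Promoter sequence was at hand for 12 of the 14 called genes. Of these, 6 held a match to at least 1 of 5 motifs of factors that act downstream of these receptors or in myeloid cells. The share of all windows with any of the 5 motifs was not counted, so the 6 of 12 has no background share beside it. The 6 are printed to show the letters in which these matches lie, as the 250 bases upstream of the RefSeq start site in GRCm38.p6, 5′ to 3′, with the matches in capitals. The windows are chr17:56162241-56162490 on the plus strand for Tnfaip8l1, chrX:106143025-106143274 on the plus strand for Tlr13, chr4:135727909-135728158 on the plus strand for Il22ra1, chr1:40085843-40086092 on the plus strand for Il1r2, chrX:167264330-167264579 on the minus strand for Tlr8 and chr4:145246871-145247120 on the minus strand for Tnfrsf1b.
Tnfaip8l1: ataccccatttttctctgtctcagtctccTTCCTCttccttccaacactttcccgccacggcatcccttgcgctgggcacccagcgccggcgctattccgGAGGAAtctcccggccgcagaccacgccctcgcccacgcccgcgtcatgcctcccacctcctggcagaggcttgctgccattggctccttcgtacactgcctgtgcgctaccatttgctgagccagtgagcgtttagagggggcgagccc
Tlr13: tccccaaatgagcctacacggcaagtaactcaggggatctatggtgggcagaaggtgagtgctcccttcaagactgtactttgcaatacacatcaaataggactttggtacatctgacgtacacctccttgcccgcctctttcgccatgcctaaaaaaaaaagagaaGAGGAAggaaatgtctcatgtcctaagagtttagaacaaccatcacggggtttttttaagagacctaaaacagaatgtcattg
Il22ra1: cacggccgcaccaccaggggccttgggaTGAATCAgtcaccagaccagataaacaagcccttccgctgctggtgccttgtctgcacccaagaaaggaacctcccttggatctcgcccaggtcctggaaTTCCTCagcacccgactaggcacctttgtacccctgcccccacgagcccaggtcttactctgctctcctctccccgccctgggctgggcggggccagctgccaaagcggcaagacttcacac
Il1r2: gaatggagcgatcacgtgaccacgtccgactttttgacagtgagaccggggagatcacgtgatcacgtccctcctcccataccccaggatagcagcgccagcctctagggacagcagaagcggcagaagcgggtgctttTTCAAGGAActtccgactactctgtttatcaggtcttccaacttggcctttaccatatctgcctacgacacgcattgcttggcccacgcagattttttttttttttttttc
Tlr8: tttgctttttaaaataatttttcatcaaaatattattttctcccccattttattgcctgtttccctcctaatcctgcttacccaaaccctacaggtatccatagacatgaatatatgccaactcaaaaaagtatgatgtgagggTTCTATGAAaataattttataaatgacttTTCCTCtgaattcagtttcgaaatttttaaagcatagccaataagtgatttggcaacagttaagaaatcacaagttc
Tnfrsf1b: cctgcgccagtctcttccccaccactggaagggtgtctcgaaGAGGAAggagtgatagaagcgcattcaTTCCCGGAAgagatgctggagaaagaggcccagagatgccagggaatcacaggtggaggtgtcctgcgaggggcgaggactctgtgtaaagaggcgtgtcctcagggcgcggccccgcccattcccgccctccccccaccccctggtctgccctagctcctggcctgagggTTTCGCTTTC

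The motifs were searched on both strands. The PU.1 core GAGGAA was matched in Tnfaip8l1, Tlr13, Il22ra1, Tlr8 and Tnfrsf1b, the STAT motif TTCNNNGAA in Il1r2, Tlr8 and Tnfrsf1b, the AP-1 motif TGANTCA in Il22ra1 and the ISRE motif in Tnfrsf1b. No matches overlapped in these 6 windows. PU.1 cores were in 29.0% of 62 windows of 52 member genes and in 23.3% of all 32851 windows of this length. STAT motifs were in 8.06% of member windows and 7.02% of all windows, AP-1 motifs in 11.3% and 6.75%, and ISRE motifs in 1.61% and 2.98%. The NF-kB motif was in 8.06% of member windows, those of Ccr3, Csf1, Il21r, Tlr2 and Tlr3, and in 0.98% of all windows. None of these genes was called by edgeR on reads summed per gene, though a peak of Tlr3 was called higher (below). No searched window of a gene called on summed reads held the NF-kB motif. A match describes letters and is no evidence that a factor binds there.

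Of the 7 ligand genes, the chemokine Cxcl12, the growth factors Csf1, Bmp2 and Bmp4, the TNF family ligands Tnfsf10 and Tnfsf14 and the interleukin 1 receptor antagonist Il1rn, none passed edgeR's test, against 14.7% of all genes. The count was 0 at an unadjusted p of 0.05 and 0 by DESeq2. Cxcl12, which guides cells bearing its receptor, had 639, 663 and 506 CPM in BDL, against 732, 519 and 952 CPM in control. The groups overlapped, and the log2 change was -0.29 ± 0.23 (SE, edgeR adjusted p = 0.468). Csf1, the growth factor of macrophages, had 33.6, 28.2 and 47.7 CPM in BDL, against 17.1, 23.8 and 21.0 CPM in control. Every BDL library lay above every control library, with a log2 change of 0.82 ± 0.40 (SE, edgeR adjusted p = 0.222). Bmp2, which in liver endothelium acts on iron control, had 216, 175 and 237 CPM in BDL, against 334, 304 and 196 CPM in control, a log2 difference of -0.41 ± 0.23 (SE, edgeR adjusted p = 0.304) between overlapping groups. The other 4 had log2 differences between 0.14 for Bmp4 and 1.33 for Il1rn.

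Among 42 tested receptor genes, 9 rose and 1 fell, or 21.4% and 2.38%, against 8.2% and 6.55% of all tested genes. The interleukin 1 receptor family gave calls in both directions. Il1r2, a decoy receptor that binds interleukin 1 without signalling, had 12.9, 5.74 and 11.0 CPM in BDL (289, 232 and 341 reads) and 0 reads in all 3 control libraries. Set against a floor of 3 reads in each control library, which covers counting error only, it was at least 51.8-fold higher (edgeR adjusted p = 0.0162), and adjusted p was 0.0674, 0.0564 and 0.0787 without BDL replicate 1, 2 or 3. Its peak was at chr1:40125099-40125223, at the very end of the gene span. Il1rl2, the signalling receptor for interleukin 36, had 3.53, 3.04 and 6.28 CPM in BDL (79, 123 and 195 reads) and 0 reads in all control libraries. It was at least 22.5-fold higher (edgeR adjusted p = 0.0441), but adjusted p lay between 0.0548 and 0.149 when any 1 of the 6 libraries was left out. The bounds hold only where the zeros are counting zeros: peaks without reads outnumbered those with 1 to 20 reads in every library, by 422 to 60 in BDL replicate 1 and by 957 to 156 in control replicate 1.

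Il1rap, the accessory chain that the receptors for interleukins 1, 33 and 36 share, had 65.0, 46.9 and 44.7 CPM in BDL, against 127, 159 and 213 CPM in control. Every BDL library was below every control library. The means were 52.2 ± 11.1 in BDL and 167 ± 43.5 in control (SD, n = 3 each), a log2 change of -1.67 ± 0.27 (SE, edgeR adjusted p = 0.00535), which passed with any 1 library left out. Il1r1, the signalling receptor itself, had 145, 109 and 119.9 CPM in BDL, against 180.1, 61.7 and 68.9 CPM in control. Control replicate 1 was the highest of all 6, and the log2 change was 0.27 ± 0.40 (SE, edgeR adjusted p = 0.717), with adjusted p = 0.0478 without that library.

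Among the interleukin receptor chains outside the interleukin 1 family, 3 rose. Il4ra, which binds interleukin 4 and pairs with Il13ra1 for interleukin 13, had 357, 346 and 417 CPM in BDL, against 190.0, 143 and 212 CPM in control. All BDL values were above all control values, with means of 373 ± 38.2 in BDL and 182 ± 35.3 in control (SD, n = 3 each). The log2 change was 1.04 ± 0.20 (SE, edgeR adjusted p = 0.0101), and adjusted p was 0.0580 without BDL replicate 3. Its partner chain Il13ra1 had 280.4, 334 and 319 CPM in BDL, against 266, 215 and 289.7 CPM in control. The groups overlapped and the log2 change was 0.28 ± 0.18 (SE, edgeR adjusted p = 0.364). Whether Il4ra and Il13ra1 differed in their change was not tested.

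Il10ra, the chain that gives the receptor for the anti-inflammatory interleukin 10 its specificity, had 806, 1009 and 1180 CPM in BDL, against 290.3, 387 and 705 CPM in control. The groups did not overlap, but control replicate 3 came near the lowest BDL library. The means were 998 ± 187 in BDL and 461 ± 217 in control (SD, n = 3 each), a log2 change of 1.12 ± 0.31 (SE, edgeR adjusted p = 0.0425). Adjusted p was 0.00522 without control replicate 3 and lay between 0.0780 and 0.156 when any of the other 5 libraries was left out. Il10rb, the second chain, which other receptors of the family share, had 58.7, 95.3 and 57.0 CPM in BDL, against 37.1, 71.9 and 71.1 CPM in control, with overlapping groups and edgeR adjusted p = 0.729. Il22ra1, which pairs with Il10rb to make the epithelial receptor for interleukin 22, had 107, 157 and 97.0 CPM in BDL, against 33.9, 51.8 and 28.1 CPM in control. All BDL libraries were above all control libraries, with means of 120.4 ± 31.8 in BDL and 37.9 ± 12.4 in control (SD, n = 3 each). That was a log2 change of 1.67 ± 0.32 (SE, edgeR adjusted p = 0.0109), and adjusted p was 0.0573 without BDL replicate 2.

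Il6st, the signal-transducing chain (gp130) of the interleukin 6 family, had 1284, 1393 and 1676 CPM in BDL, against 2350, 1900 and 1295 CPM in control. Control replicate 3 lay at the level of the lowest BDL library, and the log2 difference was -0.35 ± 0.22 (SE, edgeR adjusted p = 0.358), or 0.01 with library totals alone. Of the 20 interleukin genes, 18 were tested, 5 rose and 1 fell, against 8.2% and 6.55% of all tested genes. Their median log2 change was 0.35. The 8 others tested had log2 values between -2.02 for Il12rb1, whose BDL libraries were all below the control libraries (edgeR adjusted p = 0.0676), and 2.51 for Il21r. Il11ra1 is among them with 0.23, and its reads are uncertain because mouse has near-identical copies of the gene.

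**Figure D2:**
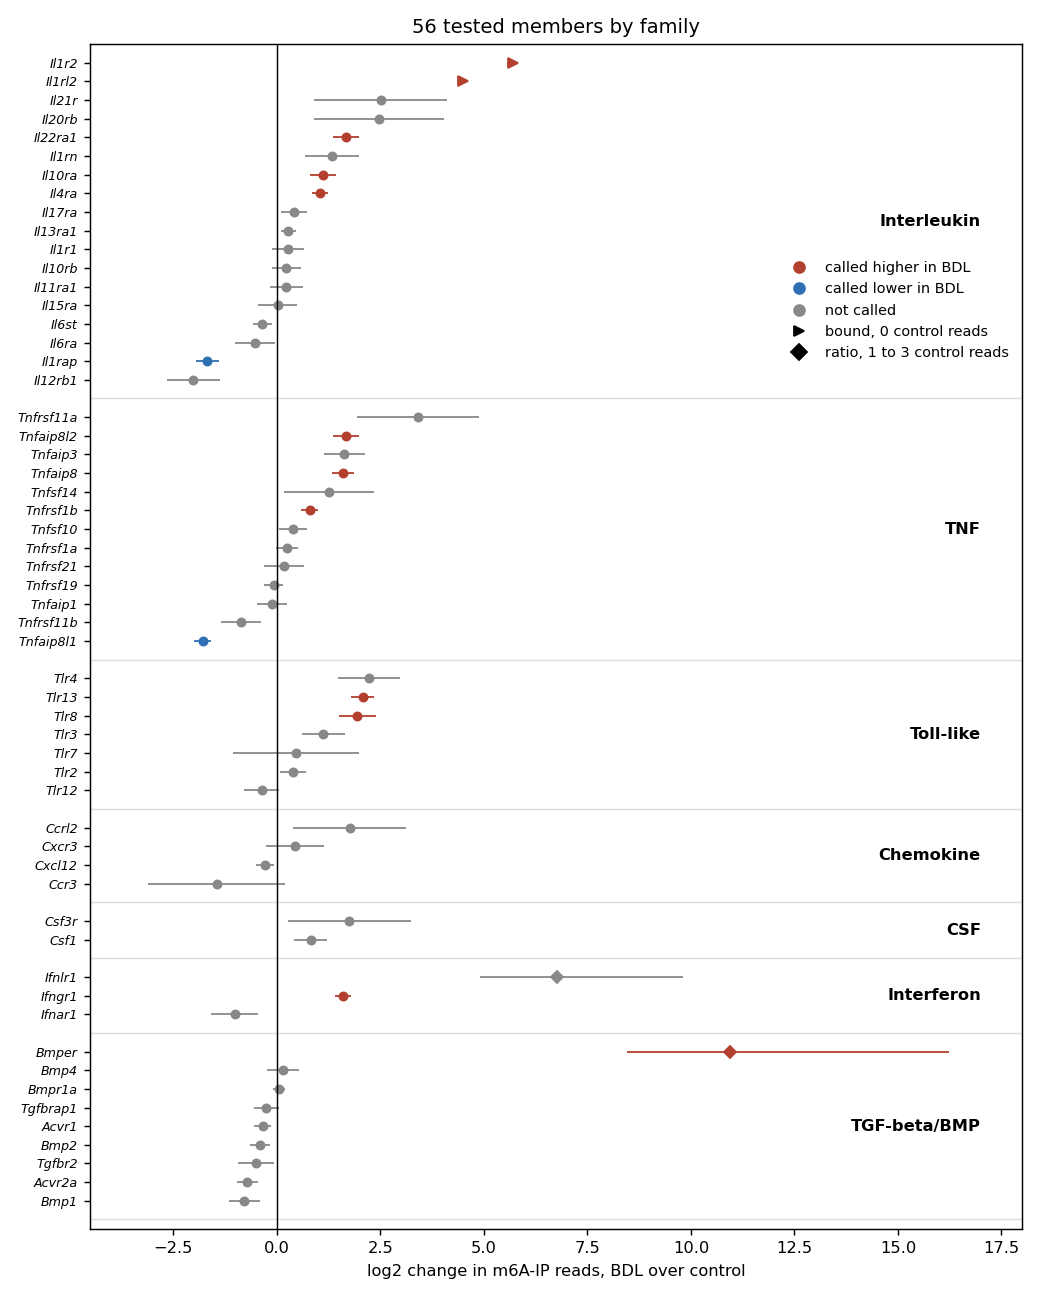
Log2 change in IP reads, BDL over control, of 56 of the 57 tested genes by family, with bars for the SE; triangles are lower bounds for Il1r2 and Il1rl2, which had 0 control reads, and diamonds are ratios of summed reads with 95% counting intervals for Bmper and Ifnlr1. Genes that rose are red, genes that fell are blue and the 42 shown that were not called are grey, and calls in both directions lie in the interleukin and TNF families alone.

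Of the 4 interferon receptor genes, 3 had a peak of their own and 1 was called, against 14.7% of all tested genes. Ifngr1, the ligand-binding chain for interferon gamma, had 1940, 2052 and 2445 CPM in BDL, against 575, 661 and 896 CPM in control. The groups were far apart, with means of 2146 ± 265 in BDL and 711 ± 166 in control (SD, n = 3 each). The log2 change was 1.59 ± 0.20 (SE, edgeR adjusted p = 0.0016) and passed with any 1 library left out. Its single peak was at chr10:19609443-19609917, near the 3′ end of the gene. Ifnar1, a chain of the receptor for type I interferons, had 8.49, 9.38 and 23.0 CPM in BDL, against 36.1, 26.9 and 19.8 CPM in control. The third BDL library overlapped the control libraries, and the log2 difference was -1.02 ± 0.56 (SE, edgeR adjusted p = 0.288). Ifnlr1, the receptor chain for interferon lambda, had 45, 253 and 128 reads in BDL, against 0, 2 and 0 reads in control. The ratio of summed reads, each scaled to its group's summed library size, was 108 with a 95% counting interval from 29.9 to 899, and the edgeR adjusted p was 0.0709, with 0.0097 by DESeq2.

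All 7 toll-like receptor genes were tested, and 2 rose, Tlr13 and Tlr8, against 8.2% of all tested genes that rose. Both sense RNA in endosomes, as do Tlr3 and Tlr7, which were not called. Tlr13, which in mice recognises bacterial ribosomal RNA, had 243, 261 and 243 CPM in BDL, against 44.1, 47.7 and 85.3 CPM in control. The lowest BDL library was well above the highest control library, and the means were 249 ± 10.3 in BDL and 59.0 ± 22.8 in control (SD, n = 3 each). edgeR put the log2 change at 2.08 ± 0.28 (SE, edgeR adjusted p = 0.00238), and the call held with any 1 library left out. Tlr8 had 29.7, 47.9 and 55.0 CPM in BDL, against 7.93, 14.999 and 11.6 CPM in control. The groups did not overlap, with means of 44.2 ± 13.1 in BDL and 11.5 ± 3.54 in control (SD, n = 3 each). The log2 change was 1.94 ± 0.45 (SE, edgeR adjusted p = 0.0228), and adjusted p was 0.0874 without BDL replicate 2 and 0.104 without BDL replicate 3.

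Tlr4, the receptor for bacterial lipopolysaccharide, had 47.5, 72.9 and 39.3 CPM in BDL, against 5.48, 3.14 and 25.5 CPM in control. All BDL libraries were above all control libraries, yet control replicate 3 stood apart from the other controls. That was a log2 change of 2.22 ± 0.74 (SE, edgeR adjusted p = 0.0821), with adjusted p = 0.00575 without control replicate 3 and 0.0164 by DESeq2. Tlr3, the receptor for double-stranded RNA, had 16.4, 29.1 and 50.4 CPM in BDL, against 13.3, 17.7 and 12.9 CPM in control, and Tlr2, for bacterial lipoproteins, had 82.4, 91.1 and 143 CPM in BDL, against 93.3, 55.6 and 93.3 CPM in control. The groups overlapped for both, with edgeR adjusted p = 0.201 for Tlr3 and 0.466 for Tlr2. Tlr12, a mouse receptor for a parasite protein, had 55.4, 70.0 and 70.9 CPM in BDL, against 38.2, 141 and 73.9 CPM in control, where control replicate 2 was the highest (edgeR adjusted p = 0.635). Tlr7, a receptor for single-stranded RNA, had 6.70, 11.9 and 7.47 CPM in BDL, against 8.67, 0 and 10.2 CPM in control, with overlapping groups (edgeR adjusted p = 0.874). The median log2 change of the 7 was 1.13.

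The TNF family had 13 tested genes, of which 3 rose and 1 fell, against 8.2% and 6.55% of all tested genes. Tnfrsf1b, the TNF receptor found mainly on immune cells, had 359, 447 and 451 CPM in BDL, against 271, 179 and 275 CPM in control. The groups did not overlap, with means of 419 ± 51.8 in BDL and 242 ± 54.7 in control (SD, n = 3 each). The log2 change was 0.79 ± 0.21 (SE, edgeR adjusted p = 0.0355), and adjusted p was 0.0656, 0.134 and 0.136 without BDL replicate 1, 2 or 3 and 0.0814 without control replicate 2. Tnfrsf1a, the broadly expressed TNF receptor, had 123, 189 and 186 CPM in BDL, against 106, 139 and 177 CPM in control, with overlapping groups and edgeR adjusted p = 0.599. Tnfrsf19 (edgeR adjusted p = 0.867), an orphan receptor of the family, had 116, 94.5 and 111 CPM in BDL, against 110.2, 90.1 and 138 CPM in control.

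The Tnfaip8 group of cytoplasmic proteins, which bind phosphoinositides and act in cell survival and immune restraint, was split. Tnfaip8 had 654, 889.5 and 812 CPM in BDL, against 220.4, 186 and 369.8 CPM in control. Its BDL libraries were all above the control libraries, with means of 785 ± 120.0 in BDL and 259 ± 97.7 in control (SD, n = 3 each). edgeR put the log2 change at 1.60 ± 0.27 (SE, edgeR adjusted p = 0.00584), and the call held with any 1 library left out. Tnfaip8l2, known to restrain toll-like and T cell receptor signalling, had 206, 272 and 265 CPM in BDL, against 85.3, 43.3 and 105 CPM in control. The groups were clearly apart, with means of 247 ± 36.2 in BDL and 77.8 ± 31.5 in control (SD, n = 3 each). The log2 change was 1.67 ± 0.32 (SE, edgeR adjusted p = 0.0101), and adjusted p was 0.0516 without BDL replicate 2 and 0.0550 without BDL replicate 3. Tnfaip8l1 went the other way, with 145, 147 and 143 CPM in BDL, against 478, 625 and 407 CPM in control. The BDL libraries hardly differed from each other and were all below the control libraries, with means of 145 ± 1.96 in BDL and 503 ± 112 in control (SD, n = 3 each). That was a log2 change of -1.79 ± 0.20 (SE, edgeR adjusted p = 8.37e-04), and the call held with any 1 library left out.

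Tnfaip3, the deubiquitinase A20 that ends NF-kB signalling, had 184, 204 and 176 CPM in BDL, against 95.0, 18.9 and 68.3 CPM in control. All BDL libraries were above all control libraries, and the control libraries differed widely. The log2 change was 1.63 ± 0.49 (SE, edgeR adjusted p = 0.0578), with 0.0345 and 0.0246 without control replicate 1 or 2, 0.0310 with library totals alone and 0.0043 by DESeq2. Tnfaip1, an adaptor of a ubiquitin ligase, had 42.0, 91.8 and 96.4 CPM in BDL, against 114, 67.6 and 69.1 CPM in control, with edgeR adjusted p = 0.863. The other 5 tested genes of the family had log2 values between -0.87 for Tnfrsf11b and 3.41 for Tnfrsf11a, and none passed. The family's median log2 change was 0.38.

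Chemokine genes had no call among 5 tested, against 14.7% of all tested genes, with 1 at an unadjusted p of 0.05 and 1 by DESeq2. Ccrl2, an atypical receptor that binds chemerin, had 15.6, 24.9 and 16.3 CPM in BDL, against 7.48, 9.31 and 0 CPM in control, with no overlap (edgeR adjusted p = 0.453). Cxcr3, of activated T cells, had 14.7, 11.5 and 24.0 CPM in BDL, against 22.2, 9.92 and 5.07 CPM in control. Ccr3, of eosinophils, had 2.55, 6.31 and 0 CPM in BDL, against 6.67, 5.93 and 11.7 CPM in control. The groups overlapped for Cxcr3 and Ccr3, with edgeR adjusted p = 0.743 for Cxcr3 and 0.627 for Ccr3. The colony stimulating factor genes Csf1 and Csf3r gave no call, 0 at an unadjusted p of 0.05 and 0 by DESeq2. Csf3r, the receptor that defines neutrophils and their precursors, had 10.2, 13.3 and 9.73 CPM in BDL, against 0, 4.35 and 5.52 CPM in control, with no overlap (edgeR adjusted p = 0.497).

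In the TGF-beta and BMP family 1 of 9 tested genes was called, against 14.7% of all tested genes, and this gene is no receptor. Bmper, a secreted protein that binds BMPs and tunes their signal, had 46.3, 44.8 and 32.5 CPM in BDL (1036, 1810 and 1009 reads), against 1, 0 and 0 reads in control. The same ratio of scaled summed reads was 1964 with a 95% counting interval from 352 to 77580 (edgeR adjusted p = 4.59e-04), and the call passed with any 1 library left out. The reads came from 1 peak at chr9:23406547-23406721. Acvr2a, an activin receptor, had 86.8, 114 and 70.4 CPM in BDL, against 119, 142 and 182 CPM in control. All BDL libraries were below the control libraries, with a log2 change of -0.71 ± 0.26 (SE, edgeR adjusted p = 0.108). Acvr1, a receptor for BMPs and activins, had 92.0, 106 and 107 CPM in BDL, against 116, 143 and 128 CPM in control, all BDL libraries below the controls, with edgeR adjusted p = 0.317. Bmpr1a, a BMP receptor that hepatocytes use in iron control, had 540.2, 674 and 584 CPM in BDL, against 621, 547 and 562 CPM in control, with edgeR adjusted p = 0.851. The other 4 tested genes besides Bmp2 had log2 values between -0.78 for the protease Bmp1 and 0.14 for Bmp4. The family's median log2 change was -0.34, or 0.01 with library totals alone.

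The peaks of a gene were then set beside each other. Of 111 peaks annotated to the 64 genes, 107 were tested; 11 rose and 5 fell, against 9.16% of all 7083 tested peaks in either direction, 4.62% higher and 4.55% lower. Tlr13 had 4 peaks, and the one at chrX:106156984-106157158 rose by 3.07 ± 0.43 on the log2 scale (SE, edgeR adjusted p = 0.00646), while the other 3 had values between 0.93 and 4.03 that did not pass. The long Tlr3 peak at chr8:45400813-45402847 had 170, 409 and 364 reads in BDL and 0 in control, at least 52.2-fold higher (edgeR adjusted p = 0.0281), with 0.0839, 0.112 and 0.126 without BDL replicate 1, 2 or 3. Another Tlr3 peak had a log2 value of -0.14. The Il10ra peak at chr9:45255487-45255711 had a log2 change of 2.22 ± 0.41 (SE, edgeR adjusted p = 0.0176), with 0.0660 without BDL replicate 2 and 0.0900 without BDL replicate 3. A further peak of Il10ra had 1.06 and did not pass (edgeR adjusted p = 0.0863). Both wider Tnfaip8l1 peaks, at chr17:56172252-56172426 and chr17:56172727-56172951, fell, with log2 changes of -1.76 and -1.92, and passed with any 1 library left out, as the Tlr13 peak did. Il1rap fell in its own peak at chr16:26701202-26701376 and in a peak shared with an overlapping unnamed gene at chr16:26712237-26714726, with log2 changes of -1.66 and -1.76. Without BDL replicate 2 or 3 the adjusted p was 0.0701 or 0.0692 for its own peak and 0.0593 or 0.0591 for the shared peak. The other peaks that rose were 1 each of Ifngr1, Il1r2, Il4ra, Il22ra1, Bmper, Tnfaip3, Tnfaip8 and Tnfaip8l2, of which those of Ifngr1 and Bmper passed whichever library was left out.

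Whether peaks of a gene changed by different amounts was tested with edgeR's diffSpliceDGE in the 23 genes with 2 or more tested peaks of their own. None passed, against 1.01% of the 1288 genes tested. At an unadjusted p of 0.05 there was 1, Tlr3, with an edgeR diffSpliceDGE adjusted p of 0.154. Without control replicate 3 Tlr3 passed (edgeR adjusted p = 0.0239), and without control replicate 1 Tlr13 passed (edgeR adjusted p = 0.00382, against 0.767 with all libraries). In 15 of the 23 all peaks had the same sign, and the share over the 1288 genes was not counted. The 16 shared peaks held 2 calls, both lower, the Il1rap peak above and 1 shared by Il11ra1 and Rpp25l (chr4:41712033-41712232, log2 change -1.16 ± 0.16, SE, edgeR adjusted p = 0.00562). Reads of a shared peak cannot be assigned to either gene. No shared peak of Cxcr6, Ifnar2, Il17rb, Il4i1 or Bmp2k passed, and that of Tnfrsf23 had no reads. Csf1r, the receptor for Csf1 and a marker of macrophages, had only a peak shared with Hmgxb3, with 918, 2018 and 871 reads in BDL, against 386, 1187 and 481 reads in control (log2 difference -0.08, edgeR adjusted p = 0.937).

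**Figure D3:**
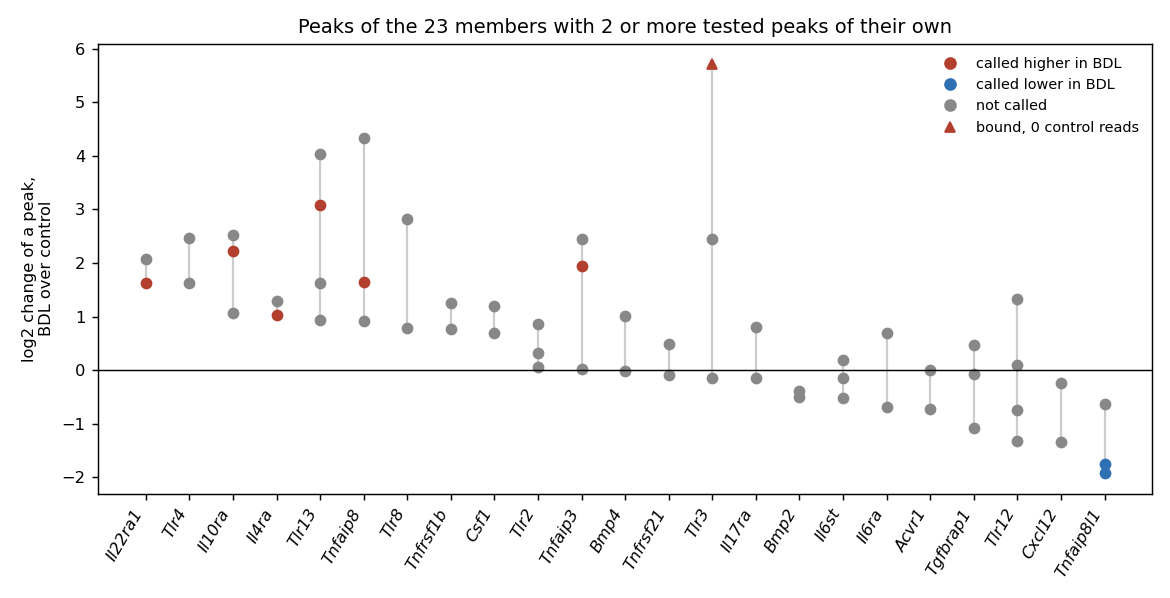
Log2 change, BDL over control, of each tested peak of the 23 genes with 2 or more peaks of their own, with a grey line joining the peaks of a gene and a triangle for a lower bound in Tlr3. Peaks of Tlr13, Tnfaip8 and Tlr3 are spread widely, and the peaks of Il4ra and Il22ra1 lie close together.

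Genes that carry the signal inside the cell were counted from lists of each pathway. Of 20 tested genes of the NF-kB, toll-like, interleukin 1 and TNF pathways, 3 rose and 1 fell, against 14.7% of all genes in either direction, and the median log2 change was 0.33, against 0.03. Birc3, a ubiquitin ligase of TNF signalling, had 483, 639 and 697 CPM in BDL, against 172, 139 and 240.2 CPM in control, a log2 change of 1.72 ± 0.24 (SE, edgeR adjusted p = 0.00263). Cd14, the co-receptor that hands lipopolysaccharide to Tlr4 and also a macrophage marker, had 1634, 2609 and 2413 CPM in BDL, against 488, 103 and 149 CPM in control, a log2 change of 3.17 ± 0.56 (SE, edgeR adjusted p = 0.00913). Neither gene's groups overlapped, and both calls passed with any 1 library left out. The adaptors of toll-like receptors Ticam1 and Ticam2 were called in opposite directions. Ticam1 had 669.7, 690.3 and 604 CPM in BDL, against 1247, 1016 and 1169 CPM in control, a log2 change of -0.81 ± 0.15 (SE, edgeR adjusted p = 0.00964), with 0.0568 without BDL replicate 3 and 0.0708 with library totals alone. Ticam2 had 225, 274 and 56 reads in BDL and 0 in control, at least 32.6-fold higher (edgeR adjusted p = 0.0341). Its adjusted p was 0.112, 0.110 and 0.0821 without BDL replicate 1, 2 or 3 and 0.0540 without control replicate 2.

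Of 16 tested JAK-STAT genes, 1 rose and 3 fell, against 14.7% of all genes in either direction, with a median log2 change of 0.30. Each of these calls was lost in at least 3 of the 6 fits without 1 library. Stat2, a factor of the interferon response, had 89.4, 107 and 99.0 CPM in BDL, against 193, 168 and 189 CPM in control, a log2 change of -0.90 ± 0.19 (SE, edgeR adjusted p = 0.0152). Its adjusted p was 0.0527, 0.0526 and 0.0622 without BDL replicate 1, 2 or 3. Lifr, the receptor for leukaemia inhibitory factor that pairs with Il6st, had 13.9, 34.1 and 42.6 CPM in BDL, against 82.9, 154 and 91.1 CPM in control, a log2 change of -1.86 ± 0.44 (SE, edgeR adjusted p = 0.0253). Its adjusted p was 0.0504, 0.0793 and 0.0516 without BDL replicate 1, 2 or 3 and 0.0905 without control replicate 2. Neither Stat2 nor Lifr had overlapping groups. Socs2, a feedback inhibitor, had 69, 165 and 149 reads in BDL and 0 in control, at least 20.9-fold higher (edgeR adjusted p = 0.0459). Leaving out any 1 library put its adjusted p between 0.0585 and 0.140. With library totals alone the 3 genes that fell did not pass.

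Of 21 tested SMAD pathway genes, 2 rose and 1 fell, a share near the 14.7% of all genes, and the median log2 change was 0.60. Id3, a BMP target that blocks helix-loop-helix factors, had 363, 670 and 538 CPM in BDL, against 315, 278 and 280.2 CPM in control, a log2 change of 0.85 ± 0.22 (SE, edgeR adjusted p = 0.0358). Its relative Id2 had 561, 731 and 656 CPM in BDL, against 1851, 1219 and 912 CPM in control, a log2 change of -1.03 ± 0.25 (SE, edgeR adjusted p = 0.0275). Smurf1, a ubiquitin ligase for SMAD factors, had a log2 change of 1.85 ± 0.53 (SE, edgeR adjusted p = 0.0485). Id3 passed only without BDL replicate 1 (adjusted p = 0.0189) and was otherwise between 0.0510 and 0.151. Id2 passed only without control replicate 1 (0.0448) or 3 (0.0101) and was otherwise between 0.0600 and 0.112. Smurf1 passed only without control replicate 2 (0.0331) and was otherwise between 0.0769 and 0.163.

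Markers of several liver cell types also moved, and their counts stand against 8.2% of all tested genes that rose and 6.55% that fell. Of 16 Kupffer cell and macrophage markers 8 had a tested peak of their own, of which 5 rose (Cd14, Gpnmb, Cx3cr1, Cd5l and Cd163) and none fell. The number was 2 without BDL replicate 2 or 3, 3 without BDL replicate 1 or control replicate 1 or 2, and 4 without control replicate 3, and Cd14 and Gpnmb passed in each of these. The summed level of the 8 was 4987 to 5947 CPM in BDL, against 1643 to 2633 CPM in control. Most of this sum came from Cd14, given above, and Cd5l, so it says little about the other markers. Cd5l had 2712, 2718 and 2899 CPM in BDL, against 1133, 1206 and 2133 CPM in control, and passed only without control replicate 3. The log2 change was positive for 6 of the 8 and negative for 2. The Kupffer cell marker Clec4f, chosen after its values were seen, had 155, 98.5 and 164 CPM in BDL, against 202, 180.3 and 250.4 CPM in control, with every BDL library below the controls (edgeR adjusted p = 0.147). Adgre1, Cd68, Vsig4, Timd4, Marco, Itgam and Trem2 had no peak. Csf1r, also on this list, had only the shared peak given above, which did not pass (log2 difference -0.08, edgeR adjusted p = 0.937). Of 13 cholangiocyte markers 7 had a peak, 6 were tested and 3 rose. The sum of the 6 was 1826 to 2914 CPM in BDL, against 462 to 583 CPM in control. Krt7, Krt19 and Epcam were among those without a peak. Of 12 stellate cell and fibroblast markers 3 had a peak, 2 were tested and 1 rose, Pdgfra, and 0 did without BDL replicate 2 or 3. Des, Acta2, Col1a1, Col1a2 and Col3a1 were among those without a peak. The sum of the 2 was 318 to 488 CPM in BDL, against 113 to 211 CPM in control. Of 14 hepatocyte markers 9 were tested and 4 fell, Apoa2, Cebpa, Ttr and Apob. Only Apoa2 and Cebpa passed without BDL replicate 2 or 3 or control replicate 1 or 2, and 3 of the 4, without Apob, passed without BDL replicate 1 and with library totals alone. The sum of the 9 was 10105 to 13562 CPM in BDL, against 17814 to 22056 CPM in control. Of 10 endothelial markers 5 had a peak and 4 were tested. None of these 4 passed by edgeR or DESeq2, 1 did at an unadjusted p of 0.05, and 1, Cdh5, passed with library totals alone or without control replicate 1. Their sum was 385 to 587 CPM in BDL, against 355 to 521 CPM in control. The lists for neutrophils, T and NK cells, and B and plasma cells each had 1 gene with a peak. For neutrophils it was Csf3r, already given above as a member, at 9.73 to 13.3 CPM in BDL and 0 to 5.52 CPM in control. For T and NK cells it was Il2rb, an interleukin receptor gene that the rule left out, at 5.09 to 11.6 CPM in BDL and 0 in control. Neither is a marker apart from the cytokine receptor genes. The B and plasma cell gene was at 11.3 to 13.9 CPM in BDL and 0 to 11.0 CPM in control. The dendritic cell list had 0 of 6. The part of these cell types in the changes of cytokine and receptor genes was not tested.

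**Figure D4:**
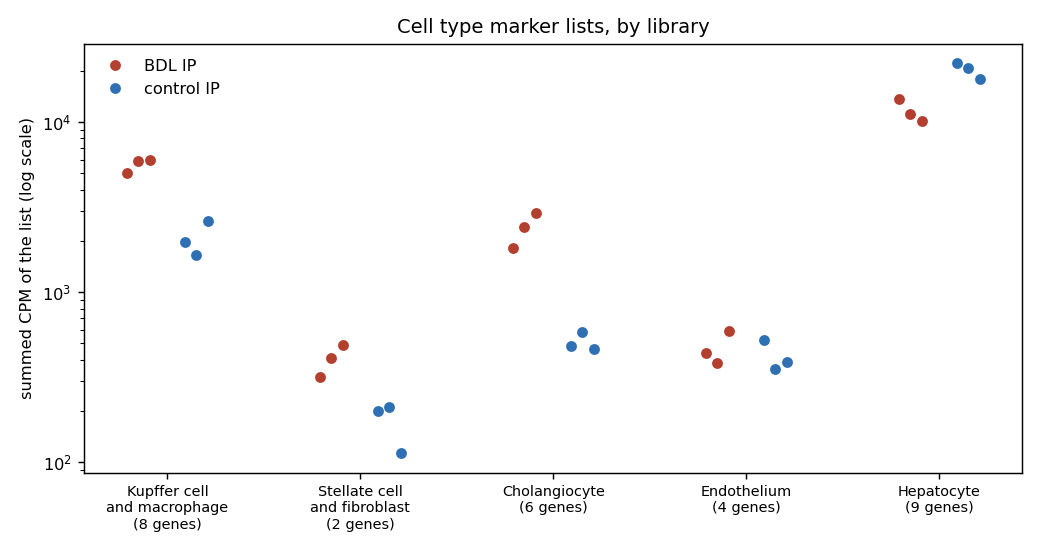
Summed CPM of the tested markers of 5 cell types in each library on a log axis, BDL in red left of control in blue. The macrophage, stellate cell and cholangiocyte lists are higher in all BDL libraries, the hepatocyte list is lower in all of them, and the endothelial list overlaps. Most of the macrophage sum is from Cd5l and Cd14, and the stellate cell sum is of 2 tested genes of 12 listed.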

How the data were processed

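The deposited table holds, per the file headers, raw read counts for each of 6 IP libraries over merged peaks. It also holds deposited RPM values, a score that was used only to check the counts. Per the submitters' processing notes HISAT2, Bowtie2 2.2.8, fastp and bcl2fastq 2.17 were used, with no step named for any. Peak caller, counter, use of strand and genome build were not given in the sources used here. Peak coordinates are in that unnamed build, with starts counted from 1, and all 64 member genes overlap the gene of the same symbol in GRCm38.p6. No exon annotation was used.

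A peak listed for several genes was used once, which left 7460 distinct peaks of 8649 lines. Reads were summed per gene over peaks annotated to it alone. BDL and control were compared over all genes with edgeR's quasi-likelihood test (robust), TMM, filterByExpr and Benjamini-Hochberg adjustment over 4306 genes, at a threshold of 0.05. Library size was the total over all distinct peaks, between 15254737 and 35691860 reads, and CPM uses it with the TMM factor. Each SE is the absolute log2 change over the root of edgeR's F statistic. A group with 0 reads was set to 3 reads per library, which makes the fold a bound. A group with 1 to 3 reads got a ratio with a 95% counting interval (exact binomial, Clopper-Pearson). The software was edgeR 4.0.16, DESeq2 1.42.0 and limma 3.58.1 in R 4.3.3, and the fit was tested on simulated data. There it recovered 21 of 100 genes with a true log2 change of 1 in size and 62 of 100 with 2. Of its 86 calls 3 were false, so many true changes of these sizes would be missed.

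The members, families, pathway lists and markers were chosen with earlier results of these data known. Named genes were all members that passed, up to 4 further members of each family with the highest mean CPM, and up to 4 genes of each pathway list with the smallest p among those that passed. Other genes complete a count of 5 or fewer. Alternatives were no filter, a minimum of 50 reads throughout 1 group, DESeq2, its size factors, library totals alone, peaks of 75 bases or less left out, each library left out and the replicate number as a block. Input libraries were not analysed here. Some genes that the naming rule picks are named nowhere and their values are not reported here.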

Additional observations from a re-analysis of the deposited data

How the results depend on the processing

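Of the 14 called genes, 6 passed whichever library was left out: Ifngr1, Il1rap, Bmper, Tlr13, Tnfaip8l1 and Tnfaip8. Leaving out 1 library gave 5 to 12 higher and 2 to 3 lower member genes, against 12 and 2, with 5 higher without BDL replicate 2 or 3. Over all genes it gave 110 to 377 higher and 113 to 245 lower, against 353 and 282, and over member peaks 3 to 16 higher and 3 to 5 lower, against 11 and 5. For the pathway lists it gave 2 to 3 higher and 0 to 2 lower NF-kB genes, 0 to 1 higher and 0 to 2 lower JAK-STAT genes, and 0 to 2 higher and 0 to 1 lower SMAD genes, and 0 to 1 members with differing peaks. Library totals alone called 579 genes higher and 151 lower, 6 NF-kB genes higher and 0 lower, 0 JAK-STAT genes lower, and 4 SMAD genes higher and 0 lower. They turned the sign of Acvr1 (0.011), Cxcl12 (0.050), Il6st (0.0079), Tgfbrap1 (0.084), Tnfaip1 (0.24) and Tnfrsf19 (0.27), none of them called. Signs also turned without 1 library for Bmpr1a (-0.037 to 0.13), Il10rb (-0.050 to 0.38), Tlr12 (-0.71 to 0.22), Tnfaip1 (-0.32 to 0.17), Tnfrsf19 (-0.21 to 0.10), Bmp4 (-0.16 to 0.40), Il15ra (-0.25 to 0.32), Tlr7 (-0.12 to 1.004) and Tnfrsf21 (-0.34 to 0.44), none called. DESeq2 called 21 member peaks higher, 2 NF-kB genes lower and 2 SMAD genes lower, and 20 member genes including all 14, with Ifnlr1, Il12rb1, Tlr4, Tnfaip3 and Tnfrsf11a among those added. Without the filter, 0 JAK-STAT genes were higher and Il1rl2 was lost. The cause of these shifts was not tested.

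Deviations of same-numbered libraries from their group means correlated at 0.0589, 0.0117 and 0.0233, and BDL replicate 2 correlated best with control replicate 3 (0.0253). Libraries with different numbers correlated between -0.0462 and 0.0253. As each mean is over only 3 libraries, these values cannot decide whether the replicate numbers pair the libraries. With the replicate number as a block, 218 genes were higher over all genes, 0 JAK-STAT genes were higher, 0 SMAD genes were higher and 0 lower, and 11 member genes were called, without Il1r2, Il1rl2 and Tnfrsf1b. With 3 libraries a group, a change that missed the threshold was not shown to be absent, and bounds and intervals cover counting error only.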
